A study of Mus musculus with 10 samples.

Results

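Interferon-stimulated genes are the antiviral and regulatory genes that cells switch on when interferon reaches its receptors. The 32 genes described here were taken from a list of textbook members. No measured value entered the rule, but earlier results of these data were known when the list was chosen. All 32 had rows in the authors' deposited table, 125 of its 85107 transcripts, and the most abundant transcript stands for each gene, which makes them 32 of 27876 gene symbols. The table compares whole kidneys of wild-type mice given quinolinic acid at 0.5 g/L in their drinking water with kidneys of wild-type mice given vehicle, 5 mice per group. The organs were taken on day 14, and all 10 libraries carry the same batch label. The sources used here give no strain, sex or age, and do not state whether these animals also had an induced kidney injury.

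Type I and type III interferons act through receptors coupled to the kinases JAK1 and TYK2. These phosphorylate STAT2, which together with IRF9 is part of the factor ISGF3. ISGF3 binds the interferon-stimulated response element (ISRE) in promoters, whereas interferon gamma acts mainly at the gamma-activated sequence (GAS). In kidney, the response is known from viral infection, lupus nephritis and injured tubules that sense nucleic acid of their own cells.

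The values are the log2 fold change between the groups, the mean level in CPM (read counts scaled to a common library total), the likelihood-ratio statistic and its p-value, as the authors' deposited table gives them. Values of single mice were not analysed here, so no spread between mice can be shown and the depth of each library is unknown. Errors are approximate 95% intervals computed from the fold change and the likelihood ratio. The table does not name the numerator of the fold change, so a positive sign cannot be read as more or as less RNA after quinolinic acid. The labels do not say how the mice were bred or housed, and p-values reflect the spread among these 10 animals.

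The interferon-stimulated genes were expressed in these kidneys and differed little between the groups. None of the 32 passed the authors' edgeR likelihood-ratio test at an adjusted p under 0.05, which 0.0141% of all transcripts did, and the smallest adjusted p among them was 0.794 in the authors' deposited table. At an unadjusted p under 0.05 there was 1 member with a positive sign, Xaf1, and none with a negative sign. Among all 13115 genes of at least 1 CPM, 3.20% reached that p on the positive side and 0.884% on the negative side. The single member is therefore close to the background share.

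A positive sign was held by 22 members and a negative one by 10. That is 68.8% positive, beside 71.8% of all genes of at least 1 CPM. The median log2 fold change of the members was 0.14, with a middle 50% from -0.005 to 0.22, and the same figure for all genes of at least 1 CPM was 0.08, with a middle 50% from -0.01 to 0.16. All members had a mean of at least 1 CPM. Members ranged from -0.17 for Gbp7 to 0.46 for Xaf1 in the authors' deposited table, and 27 of the 32 lay within 0.25 of 0, as did 89.4% of the genes of at least 1 CPM.

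**Figure D1:**
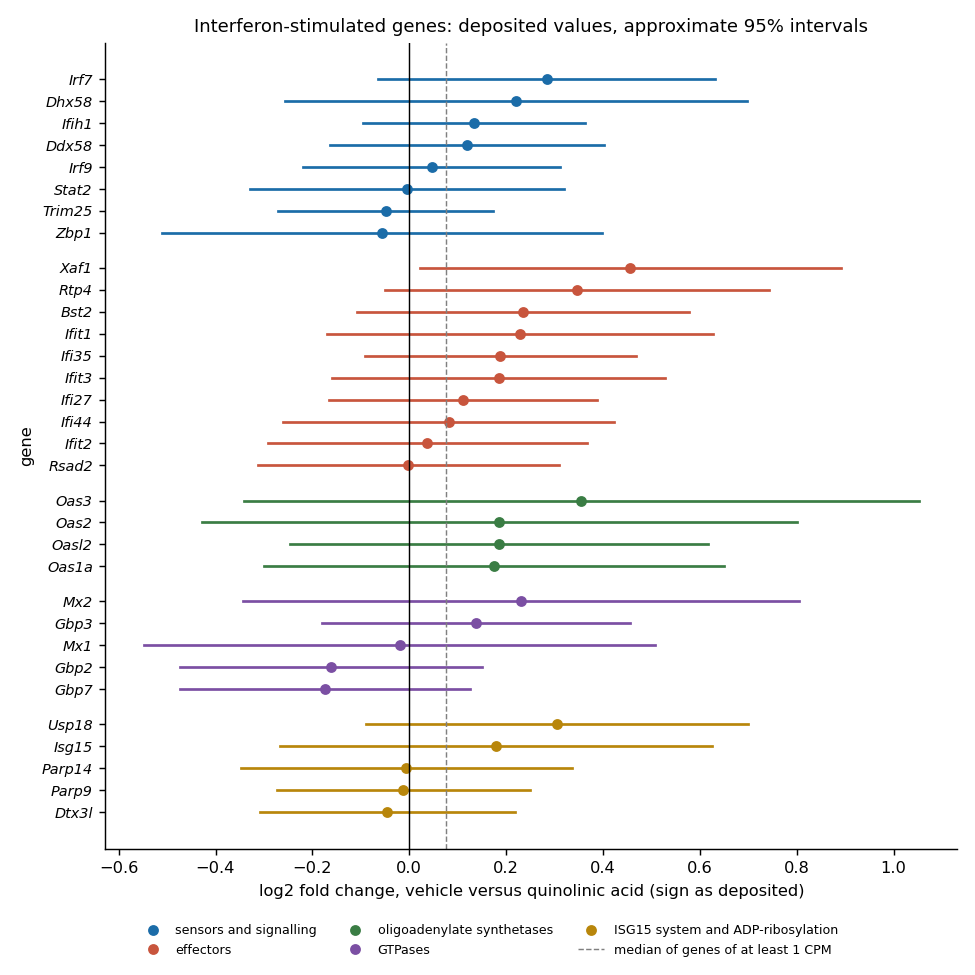
Log2 fold change of each of the 32 genes (points) with its approximate 95% interval (bars), grouped and coloured by role; the dashed line is the median of all genes of at least 1 CPM, 0.08. The intervals of 31 genes include 0, and that of Xaf1 starts at 0.02.

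The intervals show how large a difference these data allow. For 31 of the 32 members the approximate interval stayed within a 2-fold difference in either direction, and for 20 it stayed within a 1.5-fold difference. Oas3 was the exception to the former, with an upper bound of 1.05 on the log2 scale. The lowest bound was -0.55, for Mx1. The members were measured less precisely than other genes of like level. Their median approximate standard error was 0.175, against 0.135 for the 10568 genes in the same range of mean level (1.64 to 47.0 CPM), and 28 of the 32 lay above that median. Why the errors were wider was not tested.

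**Figure D2:**
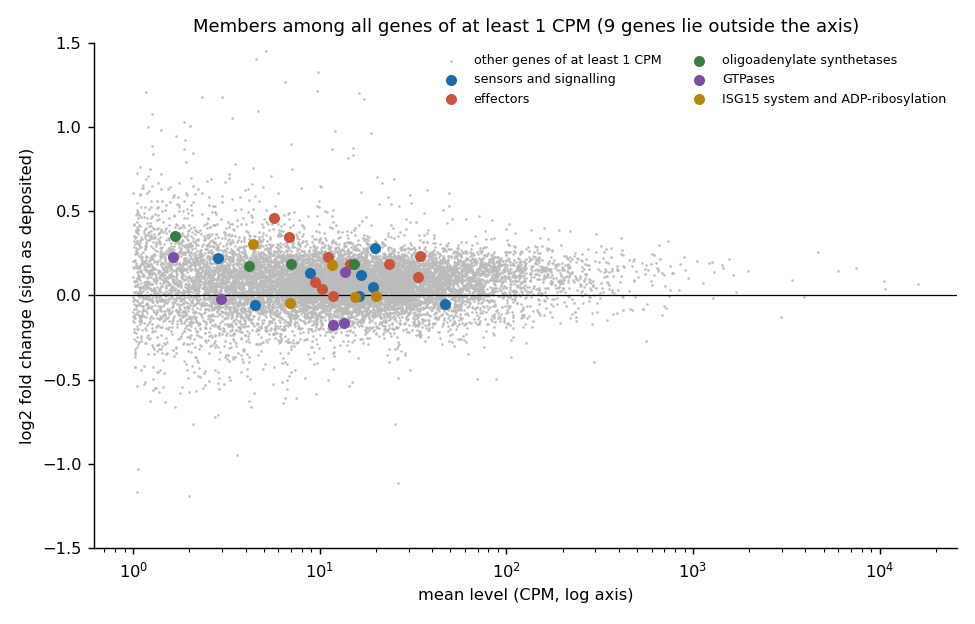
Log2 fold change against mean level in CPM (log axis) for the 13115 genes of at least 1 CPM (grey) and the 32 interferon-stimulated genes (coloured by role); 9 genes lie beyond the limits of 1.5. The members sit inside the cloud of other genes, between -0.17 and 0.46.

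An ISRE core was found in the promoter windows of 13 members. The choice of members did not use the core, but ISGF3 acts through it on genes of this class. A share above that of all genes is therefore not an independent result. RefSeq promoter windows of 300 bases (250 before and 50 after the start, build GRCm38.p6) were found for 22 of the 32 members. Dhx58, Ifi27, Mx1, Mx2, Oas2, Parp14, Parp9, Rtp4, Usp18 and Zbp1 had no entry. The ISRE core GAAANNGAAA was searched on both strands, and 13 of the 22 genes (59.1%) held it, beside 3.99% of the 27025 genes with such a window. The GAS core TTCNNNGAA, which reads the same in form on both strands, was found in 5 members (22.7%), Bst2, Gbp7, Ifi35, Ifit2 and Oas1a, beside 9.55% of all genes. Of the 6 GAS cores in members, 1 overlapped an ISRE core, in Bst2.

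The stretches below are 60 bases each and written 5′ to 3′ on the strand of the gene. They show the ISRE cores in capitals in members of positive, near-zero and negative value. Xaf1, the member with the largest value, held no core in its window and is not among them. A capital run that starts with TTTC is the same core on the other strand. Positions count from the start as 0. Those of Isg15 (chr4:156200850-156200909, minus strand) and Bst2 (chr8:71537562-71537621, minus strand) hold cores in tandem, and that of Ifit1 (chr19:34640779-34640838, plus strand) holds a separated pair. Oas1a (chr5:120907526-120907585, minus strand) carries its nearest core at -14, and Oas3 (chr5:120777700-120777759, minus strand) at -75. Gbp2 (chr3:142620579-142620638, plus strand), Gbp7 (chr3:142530258-142530317, plus strand) and Rsad2 (chr12:26456538-26456597, minus strand) are members of negative or near-zero value.
Isg15: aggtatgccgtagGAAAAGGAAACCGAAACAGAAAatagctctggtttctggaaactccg
Bst2: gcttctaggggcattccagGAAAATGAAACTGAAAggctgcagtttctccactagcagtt
Ifit1: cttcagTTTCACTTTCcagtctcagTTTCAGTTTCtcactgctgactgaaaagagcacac
Oas1a: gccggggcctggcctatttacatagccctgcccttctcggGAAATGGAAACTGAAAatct
Oas3: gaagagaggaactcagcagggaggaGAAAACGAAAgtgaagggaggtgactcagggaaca
Gbp2: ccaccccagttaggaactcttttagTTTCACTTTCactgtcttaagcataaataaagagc
Gbp7: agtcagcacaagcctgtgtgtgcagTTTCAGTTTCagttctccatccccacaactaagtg
Rsad2: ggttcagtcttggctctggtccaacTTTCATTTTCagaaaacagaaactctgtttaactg

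Members with and without the core spanned overlapping values. The 13 with an ISRE core had a median log2 fold change of 0.14 (-0.17 to 0.36), 9 of them positive. The 9 without it in this window, Dtx3l, Ifi35, Ifi44, Ifit2, Irf7, Irf9, Oasl2, Trim25 and Xaf1, had a median of 0.08 (-0.05 to 0.46), 7 of them positive. No match says only that these letters are not in this window, and no test was made of the difference.

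Among the sensors and signalling genes 5 of 8 were positive, and the group median was 0.08. Irf7, the transcription factor that amplifies interferon alpha production, had the largest value of the group, 0.28 (95% interval -0.06 to 0.63) at 19.6 CPM with p = 0.110 in the authors' deposited table. The RNA helicases that sense foreign RNA were positive and small. The authors' deposited table gives 0.13 (-0.10 to 0.36) for Ifih1, which encodes MDA5, and 0.12 (-0.16 to 0.40) for Ddx58, which encodes RIG-I. Dhx58, the helicase LGP2 that modulates both, stood at 0.22 (-0.26 to 0.70) and 2.83 CPM in the authors' deposited table. Trim25, a ubiquitin ligase that acts with RIG-I, was measured at 47.0 CPM in the authors' deposited table, and Zbp1 is a sensor of nucleic acid in the Z form. Both were slightly negative in the authors' deposited table, at -0.05 (-0.27 to 0.17) for Trim25 and -0.06 (-0.51 to 0.40) for Zbp1. Irf9 and Stat2, which act in ISGF3, lay near 0, with 0.05 (-0.22 to 0.31) for Irf9 and -0.005 (-0.33 to 0.32) for Stat2 in the authors' deposited table.

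Of the 10 effectors 9 were positive, with a median of 0.19. Once the dependence of fold change on length and level was taken out, 6 of the 10 were positive, with a median of 0.04. Xaf1, a partner of the apoptosis inhibitor XIAP, had a log2 fold change of 0.46 (0.02 to 0.89), a 1.37-fold difference at 5.71 CPM, with p = 0.0394 (0.794 after adjustment) in the authors' deposited table. It ranked 420th by p among the 13115 genes of at least 1 CPM. With that dependence taken out, its value was 0.36 and its p 0.102. Rtp4, a transmembrane chaperone that restrains the response, stood at 0.35 (-0.05 to 0.74) and 6.83 CPM, with p = 0.0872 in the authors' deposited table. For Bst2, the tetherin that holds budding virus at the cell surface, the authors' deposited table gives 0.24 (-0.11 to 0.58) and 34.3 CPM. With the dependence on length and level taken out, the value was 0.04 for Bst2, 0.21 for Rtp4, 0.03 for Ifi35 and 0.04 for Ifit3. It turned negative for Ifi27 (-0.07), Ifit2 (-0.01) and Ifi44 (-0.003).

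The Ifit genes, whose proteins bind foreign RNA, lie next to each other on chromosome 19, and all 3 were positive as deposited. The log2 fold change was 0.23 (-0.17 to 0.63) for Ifit1, 0.18 (-0.16 to 0.53) for Ifit3 and 0.04 (-0.29 to 0.37) for Ifit2 in the authors' deposited table. Those intervals overlap almost entirely. The reads of Ifit3 can be shared with its copy Ifit3b, in whose transcripts 51.2% of its 50-base stretches recur, so its value is uncertain. Rsad2, the radical enzyme viperin, stood at -0.002 (-0.31 to 0.31) and 11.8 CPM in the authors' deposited table. Ifi35, a binding partner of NMI, had 0.19 (-0.09 to 0.47) in the authors' deposited table, and 17.4% of its row overlaps the antisense gene Gm11626. Ifi27, a small membrane protein, stood at 0.11 (-0.17 to 0.39) and Ifi44 at 0.08 (-0.26 to 0.42) in the authors' deposited table.

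All 4 oligoadenylate synthetases, which make the messenger that activates RNase L, were positive, with the widest errors of the groups and a median of 0.19. Their median approximate standard error was 0.28. In the authors' deposited table Oas3 had the largest value, 0.36 (-0.34 to 1.05) at 1.67 CPM. The other 3 were close to each other in the authors' deposited table, with 0.19 (-0.43 to 0.80) for Oas2, 0.18 (-0.25 to 0.62) for Oasl2 and 0.18 (-0.30 to 0.65) for Oas1a. Of the 50-base stretches of Oas1a, 57.6% recur in transcripts of Oas1g, so the reads of these neighbours cannot be separated with certainty.

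The GTPases held the most negative values. Gbp7 stood at -0.17 (-0.47 to 0.12) at 11.7 CPM with p = 0.252 in the authors' deposited table, and Gbp2 at -0.16 (-0.47 to 0.15) at 13.5 CPM with p = 0.310. Of the Gbp7 row, 11.3% overlaps the gene Gm43802 on the same strand, so reads may be shared there. Guanylate-binding proteins attack the membranes of intracellular pathogens and answer strongly to interferon gamma. Their neighbour Gbp3 on chromosome 3 had the opposite sign, 0.14 (-0.18 to 0.46), in the authors' deposited table. The dynamin-like Mx genes, which block viral replication, were scarce, with -0.02 (-0.55 to 0.51) for Mx1 at 2.97 CPM and 0.23 (-0.34 to 0.80) for Mx2 at 1.64 CPM in the authors' deposited table. Many inbred laboratory strains carry a defective Mx1 allele, and the labels do not name the strain used.

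Isg15, a ubiquitin-like protein attached to other proteins, and Usp18, the protease that removes it and also dampens the receptor, were both positive as deposited. With the dependence on length and level taken out, Isg15 stood at -0.005 and Usp18 at 0.18. The authors' deposited table gives 0.18 (-0.27 to 0.62) for Isg15 at 11.7 CPM and 0.30 (-0.09 to 0.70) for Usp18 at 4.40 CPM with p = 0.130. The ADP-ribosylation genes of chromosome 16 lay near 0, with -0.01 (-0.27 to 0.25) for Parp9, -0.05 (-0.31 to 0.22) for its partner Dtx3l and -0.01 (-0.35 to 0.34) for Parp14 in the authors' deposited table. Parp9 and Dtx3l lie head to head on opposite strands, and exons of Parp9 cover 8.63% of the Dtx3l row. The sources used here do not state if reads were counted by strand, so reads of the pair may be mixed there.

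Per length, the levels of the rows spanned a wide range. Bst2 had 43.3 CPM per kb and Ifi27 34.4, followed by Isg15 with 15.4 and Ifit3 with 13.4. At the other end Oas3 had 0.354, Mx2 0.679 and Mx1 0.878 CPM per kb. Read sharing between transcripts of a gene means that these are levels of rows, not of whole genes.

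The 4 members with the smallest p of each sign lie on 5 chromosomes. In GENCODE vM21 (GRCm38, the assembly of mm10) the row of Xaf1 spans chr11:72301630-72313733 with 6 exons, that of Rtp4 chr16:23609919-23614222 with 2, that of Irf7 chr7:141263183-141266481 with 10 and that of Usp18 chr6:121245906-121270917 with 11. On the negative side, Gbp7 spans chr3:142530342-142550149 with 11 exons, Gbp2 chr3:142620602-142638008 with 11, Trim25 chr11:88999376-89020293 with 9 and Dtx3l chr16:35926511-35939151 with 5. All 8 rows are annotated as protein-coding.

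Abundant transcripts of a member had similar values, and scarce ones spread further. Of the 32 genes, 7 had 1 row and 25 had more, up to 11 for Irf7. Of the 93 further rows, 20 differed from the most abundant row by under 0.01 in log2 fold change, and 29 rows in 10 genes had the opposite sign. No row of any member was called, and 3 of the 125 rows (2.40%) had an unadjusted p under 0.05, beside 6.08% of all transcripts. All 3 belong to Xaf1, whose 5 rows ran from 0.38 to 0.51 in the authors' deposited table. All 11 rows of Irf7 were positive, from 0.15 to 0.29 in the authors' deposited table. Transcripts of 1 gene share reads, so agreement among them is not replication.

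Ddx58 was the clearest case of rows that disagree. Its most abundant row, a transcript without an open reading frame in the annotation, stood at 0.12 and 16.6 CPM in the authors' deposited table. The most abundant coding transcript of Ddx58 had 0.03 (-0.26 to 0.32) and 14.7 CPM in the authors' deposited table. A scarcer coding transcript had -0.22 (-0.70 to 0.27) and 2.91 CPM. Of the 10 rows of the gene, 8 were negative, down to -0.32. For Rsad2 and Zbp1, also represented by a transcript of another class, the most abundant coding rows had 0.001 and -0.08 in the authors' deposited table. Outlying rows such as that of Mx1 at 0.93 came from scarce transcripts, here at 0.131 CPM in the authors' deposited table.

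**Figure D3:**
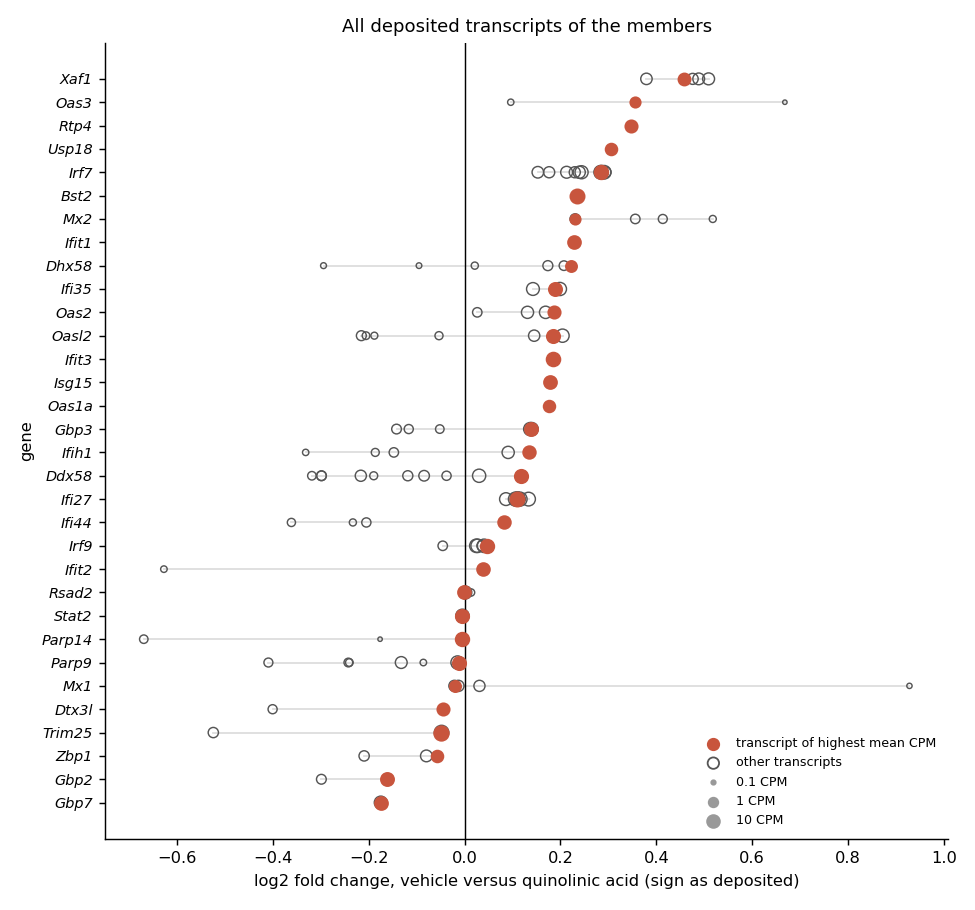
Log2 fold change of all 125 deposited transcripts of the 32 genes, with the most abundant row of each gene filled and the area of each point growing with mean CPM. The 5 rows of Xaf1 cluster between 0.38 and 0.51, while those of Ddx58 run from -0.32 to 0.12.

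The fold change of kidney genes in this comparison falls with transcript length, and the median of the members was also lowest at 4000 nt or more. Of genes of at least 1 CPM with a transcript under 1000 nt, 89.2% were positive and the median was 0.18, and positive too were all 3 members of that length (Isg15, Bst2 and Ifi27), with a median of 0.18. From 1000 to 2000 nt all 6 members were positive, with a median of 0.24 against 0.15 for all genes. From 2000 to 4000 nt 11 of 15 members were positive, with a median of 0.12 against 0.08. At 4000 nt or more 2 of 8 members were positive, Ifih1 and Oas3, beside 46.8% of all such genes, with a median of -0.01 against -0.01. Gbp7 is placed there by its row of 5614 nt. Its other row, of 2497 nt, had the same mean level and fold change. The length bin of Gbp7 and its value with the trend removed therefore depend on which row is taken. After removal of the trend on length and level, 18 members were positive and 14 negative, and their median was 0.04 against 0.00 for all genes of at least 1 CPM. Gbp2, of middle length, moved away from 0, to -0.26, and no member had an unadjusted p under 0.05. The removal changed the size of 25 of the 32 values by over 1.5 times or turned their sign, and 6 changed sign. The group medians then were 0.01 for the sensors and signalling genes, 4 of 8 positive, and 0.13 for the oligoadenylate synthetases, all 4 positive. They were -0.08 for the GTPases, 2 of 5 positive, and -0.01 for the ISG15 system and ADP-ribosylation genes, 2 of 5 positive. In the latter group Isg15 turned negative and Parp14 turned positive.

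**Figure D4:**
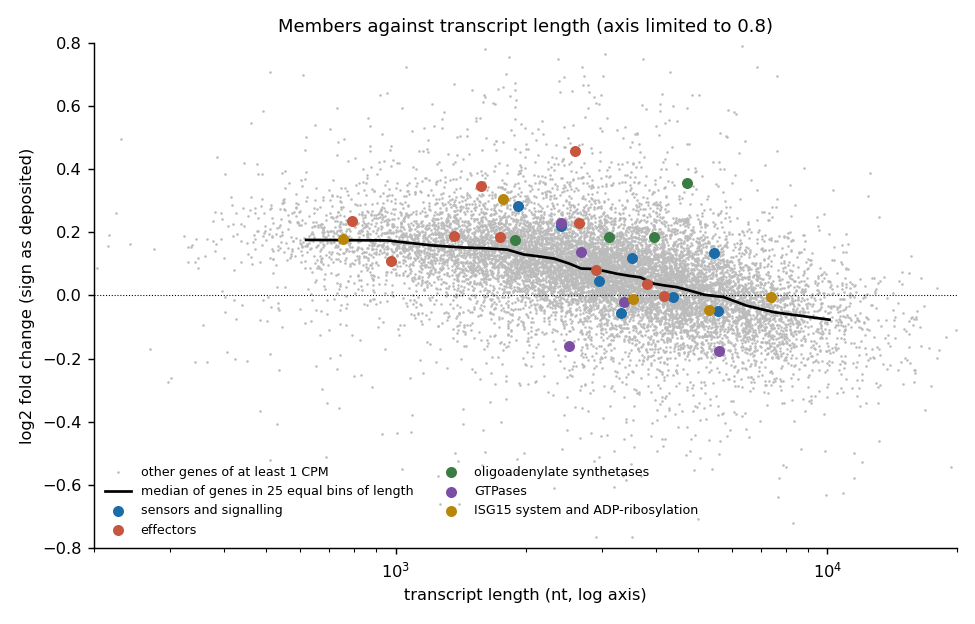
Log2 fold change against transcript length in nt (log axis) for genes of at least 1 CPM (grey), with their running median (black line) and the 32 interferon-stimulated genes coloured by role. The median falls from 0.18 under 1000 nt to -0.01 at 4000 nt or more. The members of 4000 nt or more have a median of -0.01 and run from -0.17 for Gbp7 to 0.36 for Oas3.

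The rest of the pathway showed no called gene either. Of 13 interferon genes listed, 6 had a row in the authors' deposited table and none exceeded 0.0752 CPM, the level of Ifng. Ifnb1, Ifnk and Ifnl3 have a log2 fold change of exactly 0 and Ifna2 one of 2.55 at 0.0211 CPM (p = 0.0604) in the authors' deposited table. The lowest mean of any gene was 0.0201 CPM, so these values lie close to the floor and are uncertain. The 9 receptors and kinases were all expressed above 1 CPM, 7 with a positive sign and a median of 0.03. The smallest p among them belonged to the type I receptor chain Ifnar2, with 0.23 (-0.03 to 0.49), followed by Il10rb, a receptor chain shared with interleukin 10, with 0.16 (-0.07 to 0.40), and the type III receptor chain Ifnlr1, with -0.27 (-0.66 to 0.12), in the authors' deposited table. For Ifnar2's partner chain Ifnar1 the value was 0.00 (-0.21 to 0.21) in the authors' deposited table. Jak1 had 0.03 and Tyk2 -0.03 in the authors' deposited table.

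Of 14 measured genes of sensing and interferon induction, 10 were positive, with a median of 0.03. Irf3, the factor that starts interferon beta transcription, stood at 0.13 (-0.08 to 0.35) in the authors' deposited table. The endosomal receptors Tlr7, for RNA, and Tlr9, for DNA, stood at 0.23 (-0.21 to 0.67) and -0.35 (-1.13 to 0.44) in the authors' deposited table, and the adaptor Mavs at 0.05 (-0.14 to 0.25). The 7 response factors had a median of 0.02, with 4 positive. Their smallest p belonged to Batf2, a basic leucine zipper factor, for which the authors' deposited table gives 0.37 (-0.11 to 0.85) at 0.648 CPM, and the 6 of at least 1 CPM had a median of -0.03, with 3 positive. Irf1, a factor induced by interferon gamma, had 0.02 (-0.30 to 0.33) in the authors' deposited table. Nlrc5 and Ciita, which switch on class I and class II antigen presentation, stood at -0.24 (-0.65 to 0.17) and -0.18 (-0.51 to 0.14) in the authors' deposited table. The 11 inhibitors and nucleases had a median of 0.01, with 6 positive, and their smallest p belonged to the exonuclease Isg20, with -0.43 (-0.90 to 0.03, p = 0.0698) in the authors' deposited table. Trex1, an exonuclease that clears DNA from the cytosol, stood at 0.23 (-0.03 to 0.49) and the phosphatase gene Ptpn11 at -0.13 (-0.34 to 0.09) in the authors' deposited table.

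A further 65 interferon-stimulated genes were measured, 43 positive and 22 negative, with a median of 0.08. None was called, and at an unadjusted p under 0.05 there were 2 of the 65, both positive, beside 3.58% of all genes with that sign and p. That count is close to the background share. These were Ifi27l2a, a small relative of Ifi27, with 0.54 (0.05 to 1.04) at 24.1 CPM and p = 0.0307, and the nuclear body gene Sp100 with 0.31 (0.004 to 0.63) and p = 0.0474 in the authors' deposited table. Next by p was Ifitm3, which blocks viral entry, with 0.30 (-0.03 to 0.64) in the authors' deposited table. Among the 56 of at least 1 CPM, 71.4% were positive, beside 71.8% of all genes of that level.

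**Figure D5:**
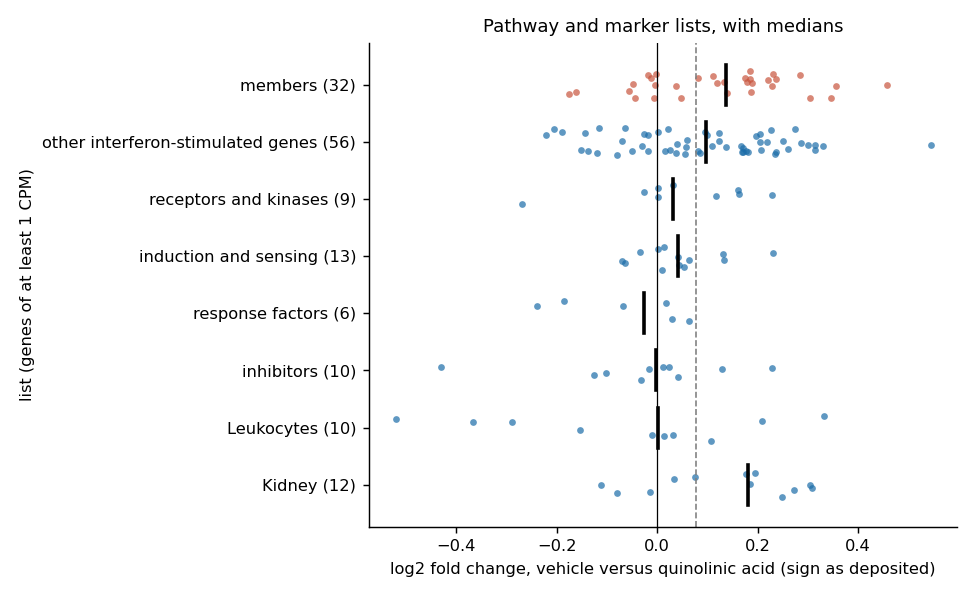
Log2 fold change of each gene of at least 1 CPM in the pathway and marker lists (points, spread vertically for view; number of genes in brackets) with list medians (black bars) and the median of all genes of at least 1 CPM, 0.08 (dashed). The members' median is 0.14 and that of the 56 further interferon-stimulated genes 0.10.

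The samples carried the RNA of kidney. All 12 kidney markers were present, from 1.32 CPM per kb for the podocyte gene Nphs1 to 588 CPM per kb for the proximal tubule transporter Slc34a1. Of them 9 were positive, and their median was 0.18. In bulk tissue, fewer cells of a type and less RNA per cell cannot be told apart. Many interferon-stimulated genes are also expressed by leukocytes. All 15 leukocyte markers had a row, from 0.0555 to 9.79 CPM per kb, 10 of them positive with a median of 0.11, and none reached an unadjusted p under 0.05. Of the 10 with at least 1 CPM 5 were positive, and their median was 0.001. Among all 15, the authors' deposited table gives Cd3e, a T cell gene, the smallest p, with 0.54 (-0.08 to 1.16) at 0.640 CPM, followed by the integrin gene Itgax, with 0.33 (-0.08 to 0.75) at 9.31 CPM. Siglech, which marks the plasmacytoid dendritic cells that make interferon alpha, was scarce at 0.349 CPM, with 0.57 (-0.20 to 1.33) in the authors' deposited table. Negative values were held by 5 of the 15. Among these the authors' deposited table gives S100a9 -0.52 (-1.30 to 0.26) at 2.84 CPM and Cd8a -0.15 (-0.58 to 0.28) at 1.44 CPM. Of 6 adipocyte and 6 hepatocyte markers, 5 of each had a positive sign at an unadjusted p under 0.05, with medians of 3.46 and 1.13, beside 3.58% of all genes with that sign and p. Most adipocyte markers were scarce, with Plin1, Lep, Adipoq and Cidec between 0.0583 and 0.369 CPM in the authors' deposited table. At 1 CPM or more there were 2 adipocyte markers, which differed. The authors' deposited table gives Cfd 3.77 (1.99 to 5.54) at 1.43 CPM and Lipe -0.02 (-0.31 to 0.27) at 6.81 CPM, with only Cfd at p under 0.05. Of the hepatocyte markers 4 had at least 1 CPM, 3 of them at p under 0.05, with a median of 0.86. The part of adipocyte and hepatocyte RNA in the members' values was not tested.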

How the data were processed

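RNA of whole kidneys was sequenced from 5 vehicle and 5 quinolinic acid mice, and the treatment label set the groups. The submitters' processing notes list STAR 2.5.3a, FastQC 0.11.2, Subread 1.4.6 with featureCounts, and edgeR, with build mm10. Filters, strand and annotation release are not given in the sources used here. The authors' deposited table holds edgeR's likelihood-ratio test across all transcripts, with the log2 fold change, the mean log2 CPM, the likelihood ratio (a score on 1 degree of freedom), the p-value and its Benjamini-Hochberg adjustment. Per the file headers it has no values of single libraries, so the count test first chosen gave way to the authors' own, and precision comes only from the deposited statistics.

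Transcripts were joined by identifier without version to GENCODE vM21 (98.0% matched), and each gene took its row of highest mean CPM. For the approximate standard error, the size of the log2 fold change was divided by the root of its likelihood ratio. The trend on log2 length and mean level was removed with loess (span 0.5, R 4.3.3) over genes of at least 1 CPM. The fit was tried on simulated data with a straight trend on log2 length and effects larger than any member's value. That trial did not cover a trend on level or effects as small as those of the members. Shared sequence was measured as 50-base stretches found in transcripts of other genes. Python 3.11.15 with pandas 2.3.3, numpy 2.4.6, scipy 1.17.1 and matplotlib 3.10.9 did the rest. The members and lists were chosen with earlier results of these data known. All members are given by role, and the 4 with the smallest p of each sign in more detail. Up to 3 genes of each further pathway list are named by smallest p, and other list genes for their place in the pathway, after their values were seen.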

Additional observations from a re-analysis of the deposited data

How the results depend on the processing

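No member was called under any alternative that could be run: an adjusted p under 0.1, the protein-coding transcript, adjustment over 1 row per gene (smallest adjusted p 0.820) or over genes of at least 1 CPM (0.918). The count of members with p under 0.05 was 1 and became 0 once the trend on length and level was removed. The count of positive members was 22, with 23 for coding transcripts, 20 after the all-gene median was subtracted and 18 with the trend removed, where 6 members changed sign. Their median of 0.14 was 0.04 with the trend removed and 0.04 with the median over all rows of each gene. For the 4 members of each sign with the smallest p of that sign, the sign held under both alternatives run for them. No paired analysis was possible because the table holds a finished comparison without values of single libraries. For the same reason other count normalizations and fits without single replicates were not run, and an effect of 1 mouse on any value cannot be seen. Without depth, intervals rest on the deposited model alone.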
